A study of Mus musculus with 2 samples.

Results

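The sperm-egg fusion membrane proteins examined here were the products of 8 genes, Izumo1, Izumo2, Izumo3, Izumo4, Spaca6, Tmem95, Dcst1 and Dcst2, which were taken by symbol from the 50686 gene rows of the count matrix. The matrix came from the whole testis of 2 wild-type males of the strain C57Bl/6J Crl at 8 weeks of age, with 1 droplet library (Chromium 3′, v2 chemistry) per mouse. Values are unique molecular identifiers (UMIs), each of which stands for 1 captured RNA molecule counted near its 3′ end. Levels are given as CPM, the UMIs of a gene per 1000000 UMIs of the same group of cells.

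Fusion of the gametes takes place after the acrosome reaction, when proteins of the sperm membrane meet the plasma membrane of the egg. IZUMO1, an immunoglobulin superfamily protein, binds the egg receptor JUNO, which is encoded by Izumo1r. SPACA6, TMEM95, DCST1 and DCST2 are also needed on mouse sperm for fusion, whereas IZUMO2, IZUMO3 and IZUMO4 are paralogues of IZUMO1 with less settled roles. Germ cells in the testis transcribe these genes long before the proteins act.

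Mouse 1 gave 1237 cells with 27450497 UMIs in total, and mouse 2 gave 1315 cells with 30302332 UMIs. The median cell had 17871 UMIs in the former and 19184 in the latter. No barcode was shared between the mice. Clustering without the 8 genes gave 6 clusters of germ cells, which held 2533 of the 2552 cells. In the order of a diffusion pseudotime they were an early spermatocyte-like cluster (163 cells), a pachytene or later spermatocyte-like cluster (526), an unnamed cluster (690), a round spermatid-like cluster (449), and the first and the second elongating or condensing spermatid-like cluster (200 and 505). The unnamed cluster had a mean standardised marker score of 0.298 for pachytene or later spermatocytes, with 3 of 14 markers raised, and a close score of 0.243 for round spermatids, with 0 of 12 raised, and was given no name. Its leading genes were Ssxb1 and Ssxb2. Markers of the labelled tissue were present: 12 of 12 markers of elongating or condensing spermatids were raised in both clusters of that name, 9 of 12 markers of round spermatids in the round spermatid-like cluster, and 12 of 12 Sertoli markers in a cluster of 7 cells. These markers gave the clusters their names, so the counts describe the names and do not check them. For the spermatocyte names a smaller share was raised, 9 of 14 markers in the early and 7 of 14 in the pachytene or later cluster. The latter was at the limit for a name. The first elongating or condensing cluster also had 8 of 12 round spermatid markers raised, with a score of 0.657 beside 0.951 for its own class. Spermatogonium-like (7 cells), Sertoli-like and Leydig-like (5 cells) clusters were too small for levels of the fusion genes to be compared.

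In the GENCODE annotation of GRCm38, the 8 genes lie at 7 places on 6 chromosomes. Izumo1 (ENSMUSG00000064158) lies on chromosome 7 at 45621811 to 45628823 on the forward strand, and Izumo2 (ENSMUSG00000066500) on the same chromosome at 44708742 to 44719844, also forward. Izumo3 (ENSMUSG00000028533) lies on chromosome 4 at 92144329 to 92147234 on the reverse strand, and Izumo4 (ENSMUSG00000055862) on chromosome 10 at 80702184 to 80705373 on the forward strand. Spaca6 (ENSMUSG00000080316) takes up 17827158 to 17843009 of chromosome 17 on the forward strand and contains the microRNA genes Mir99b, Mirlet7e and Mir125a. Tmem95 (ENSMUSG00000094845) is a short gene at 69876684 to 69878018 of chromosome 11 on the reverse strand. Dcst1 (ENSMUSG00000042672, reverse) and Dcst2 (ENSMUSG00000109293, forward) share chromosome 3, at 89350219 to 89365253 and 89361975 to 89377549, so that their models overlap by 3279 bases on opposite strands. The 3′ ends of these models lie outside the overlap. UMIs are counted near 3′ ends, but the counts were made with Ensembl release 89 genes, which were not compared with these models. The model of Izumo1 runs 1581 bases past the RefSeq end (45627242) and overlaps Rasip1 on the same strand, so that reads in the overlap could belong to either gene.

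Promoter windows of 300 bases (250 before and 50 from the annotated start, RefSeq, GRCm38.p6) were at hand for 7 of the 8 genes. 4 short motifs were searched on both strands in these and in all 32851 windows. The 8-base cyclic AMP response element TGACGTCA occurred in 1.79% of all windows and, among the 7, in that of Izumo1, starting 96 bases before the start of transcription. Its core TGACG, which is contained in the longer motif, occurred in 20.8% of windows, and in those of Izumo1 and Tmem95. GTTGCC, a half-site of RFX factors, occurred in 12.5% of windows and in that of Spaca6. CAGTTG, a MYB-type motif, occurred in 13.7% of windows and in those of Dcst1 and Dcst2, where both windows contain the same copy. A match describes letters and not binding. The 250 bases before Izumo1 (chr7:45621561-45621810, forward strand) are shown because they hold the element, in capitals. The 65 bases between the starts of Dcst1 and Dcst2 in these windows (chr3:89365254-89365318, forward strand) are shown because the genes had similar profiles, described later. For Dcst2 the annotated starts differ. Its window places the start at 89365319, whereas its GENCODE model begins at 89361975 and its RefSeq span at 89350417, both inside Dcst1. Where transcription of Dcst2 begins was not tested. The 30 bases around the shared MYB-type copy (chr3:89365223-89365252, forward strand), with the copy in capitals as read on this strand, lie within the first bases of Dcst1.
Izumo1 upstream: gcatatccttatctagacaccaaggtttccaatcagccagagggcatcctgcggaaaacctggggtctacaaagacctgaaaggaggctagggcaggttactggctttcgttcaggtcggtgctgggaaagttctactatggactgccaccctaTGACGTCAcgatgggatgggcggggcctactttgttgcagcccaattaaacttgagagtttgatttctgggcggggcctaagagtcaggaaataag
Dcst1 to Dcst2: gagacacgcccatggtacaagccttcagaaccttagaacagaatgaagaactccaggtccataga
Dcst1 and Dcst2 site: gagccctcagaaCAACTGggtagtgggttc

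Izumo1, the JUNO-binding protein, was a gene of the round and early elongating spermatid clusters. In mouse 1 and mouse 2 it had 6.47 and 2.89 CPM in early spermatocyte-like, 5.66 and 4.16 CPM in pachytene or later spermatocyte-like and 97.3 and 107 CPM in unnamed cells. The level was 222 and 224 CPM in round spermatid-like cells and 218 and 245 CPM in the first elongating or condensing cluster, and then dropped to 20.1 and 26.1 CPM in the second. The round and the first elongating or condensing clusters were the highest, at 223 ± 1.56 and 232 ± 19.3 CPM (SD, n = 2 mice), and overlapped between the mice. UMIs of Izumo1 were found in 97.3% of round spermatid-like cells (437 of 449, exact 95% binomial interval 95.4 to 98.6%), at a median of 21905 UMIs per cell. In the pachytene or later spermatocyte-like cluster, where the median cell had 20843 UMIs, the share was 15.6% (12.6 to 19.0%).

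Spaca6, an immunoglobulin-fold protein needed for fusion, had the profile closest to that of Izumo1 among the members. It had 35.6 and 41.4 CPM in unnamed cells of mouse 1 and mouse 2, 81.5 and 94.6 CPM in round spermatid-like cells and 103 and 99.6 CPM in the first elongating or condensing cluster. The second elongating or condensing cluster was at 15.9 and 13.7 CPM. The mice did not overlap between the round and the first elongating or condensing cluster, at 88.0 ± 9.26 and 101 ± 2.54 CPM (SD, n = 2). In spermatocyte-like clusters Spaca6 stayed between 2.01 and 4.13 CPM.

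Dcst1 and Dcst2, members of the DC-STAMP-like family of multipass membrane proteins, were both highest in round spermatid-like cells and were lower by the first elongating or condensing cluster. Dcst1 had 44.8 and 55.2 CPM in unnamed cells, 119.7 and 128 CPM in round spermatid-like cells, 60.02 and 63.8 CPM in the first and 4.53 and 8.14 CPM in the second elongating or condensing cluster (mouse 1 and mouse 2). Dcst2 followed with 50.5 and 52.7, 94.5 and 93.4, 58.6 and 45.6, and 6.80 and 6.84 CPM in the same 4 clusters. For both genes the round spermatid-like cluster lay above every other cluster in each mouse. In the spermatocyte-like clusters neither gene passed 4.62 CPM.

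In the last cluster, the paralogues Izumo2 and Izumo3 were nearer to their highest CPM than Izumo1, Spaca6, Dcst1, Dcst2 and Izumo4. For Izumo3 the highest cluster had 1.60 times the mean CPM of the last. For the latter 5 genes it had 6.87 (Spaca6) to 19.5 times (Dcst1). Izumo1, Spaca6, Dcst1 and Dcst2 also stayed above their pachytene or later spermatocyte-like levels there, by 2.92 (Dcst1) to 3.88 (Spaca6) on the log2 scale. Izumo2 had 138 and 169 CPM in unnamed cells and then 497 and 493 CPM in the round spermatid-like cluster. It had 573 and 566 CPM in the first and 677 and 635 CPM in the second elongating or condensing cluster, the highest of the 6 clusters in both mice. Counted per cell, without division by the total, Izumo2 was highest in the first elongating or condensing cluster, with 14.0 ± 0.680 UMIs per cell against 8.60 ± 0.0863 in the second (SD, n = 2). The median total was 23510 UMIs per cell in the first and 11702 in the second, so that a smaller count was a larger share.

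Izumo3, whose product is known from acrosome formation, had 249.3 and 282 CPM in unnamed cells and 394 and 405 CPM in round spermatid-like cells. It then had 270.3 and 284 CPM in the first and 252 and 247 CPM in the second elongating or condensing cluster. Round spermatid-like cells were the highest in both mice, and the unnamed cluster overlapped with both elongating or condensing clusters.

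Izumo4, which encodes a paralogue that lacks a membrane anchor, went the other way. It had 61.0 and 87.5 CPM in early spermatocyte-like cells and 465 and 439 CPM in the pachytene or later spermatocyte-like cluster, its highest level. From there it was lower in each later cluster of both mice, at 291 and 253, 182 and 163, 104 and 81.5, and 30.9 and 23.8 CPM. No 2 neighbouring clusters overlapped between the mice. UMIs of Izumo4 were present in 99.0% of the pachytene or later spermatocyte-like cluster (97.8 to 99.7%), at a median of 20843 UMIs per cell. In the second elongating or condensing cluster, at a median of 11702 UMIs, the share was 27.9% (24.0 to 32.1%). These intervals pool the cells of both mice and cover counting error only. In the latter cluster mouse 1 had 31.4% and mouse 2 had 23.6%, which lies outside the pooled interval. With each cell thinned to 5000 UMIs, the pooled shares were 85.7% in the former and 12.9% in the latter cluster.

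Tmem95, a small single-pass protein needed for fusion, was close to the limit of detection. It had 17 UMIs in 17 of 2552 cells (0.666%, exact 95% binomial interval 0.389 to 1.06%). Of these UMIs, 10 were in unnamed cells, 3 in round spermatid-like cells, 2 in the first and 1 in the second elongating or condensing cluster, and 1 in the pachytene or later spermatocyte-like cluster. Early spermatocyte-like cells had none, which allows up to 0.856 CPM (3 counts). No order of levels can be read from these counts. The RefSeq model of Tmem95 ends 630 bases further in the 3′ direction than the GENCODE model, a difference that 6.17% of 20460 protein-coding genes equalled or passed. Its part in the low count was not tested.

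**Figure D1:**
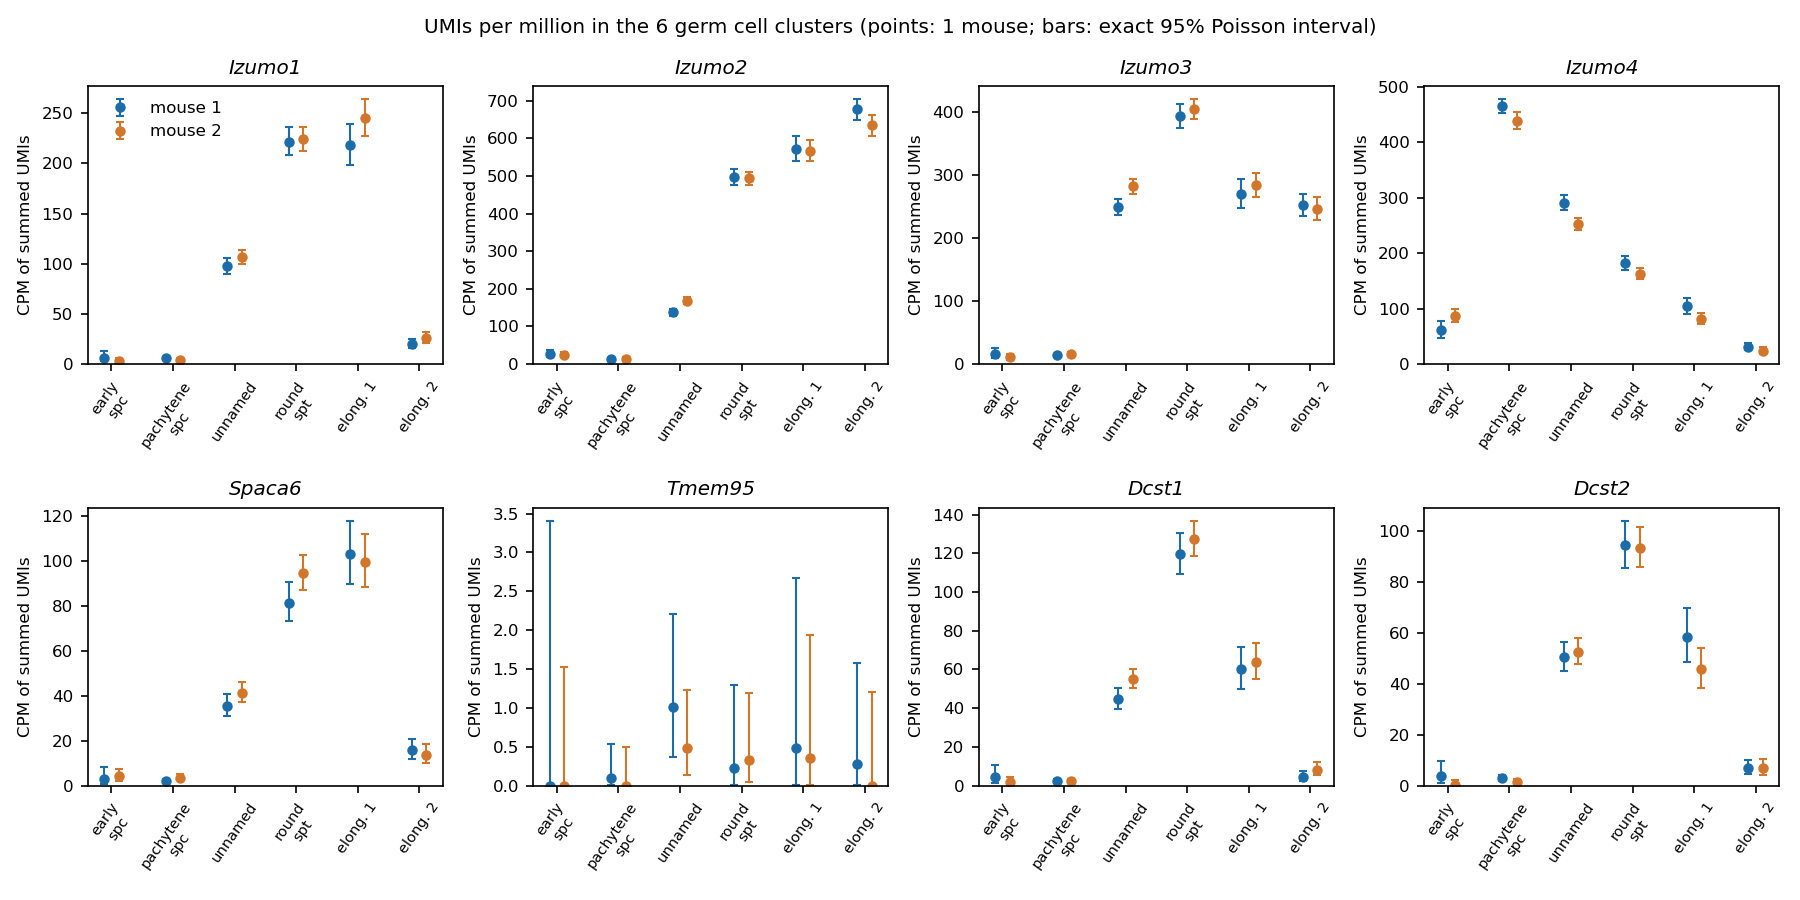
CPM (y axis, from 0) of each of the 8 genes in the 6 germ cell clusters in the order of the pseudotime (x axis; spc, spermatocyte-like; spt, spermatid-like; elong., elongating or condensing spermatid-like). Points are the 2 mice and bars are exact 95% Poisson intervals, which cover counting error only. Izumo4 is highest in the pachytene or later spermatocyte-like cluster, at 465 and 439 CPM, Izumo2 is highest in the last cluster, and the bars of Tmem95 overlap between all clusters.

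Free RNA from other cells can be counted in a droplet. Its size was not measured, since empty droplets were not examined. The protamine and transition protein genes Prm1, Prm2, Tnp1 and Tnp2, which are spermatid genes, served as a reference. Their UMIs in spermatocyte-like cells can be free RNA or come from spermatids caught in the same droplet. In early spermatocyte-like cells the CPM of these genes were 12.7 to 19.9% of the CPM over all cells. In the pachytene or later spermatocyte-like cluster they were 8.64 to 11.9%. Izumo1, Izumo2, Izumo3, Spaca6, Dcst1 and Dcst2 had between 1.07 and 13.3% of their all-cell CPM in early and between 3.48 and 8.92% in the pachytene or later spermatocyte-like cluster. These levels lay within or below the range of the protamine and transition protein genes. How much of them was free RNA was not tested. Izumo4 lay above, at 21.6 and 38.5% in early and 165 and 193% in the pachytene or later spermatocyte-like cluster.

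To ask how far the genes changed between stages, UMIs were summed per mouse and class, and round spermatid-like cells were compared with both spermatocyte-like clusters together (edgeR quasi-likelihood test, Benjamini-Hochberg adjusted over 13963 rows, 2 mice per class). The mice are separate animals, and cells were not used as replicates. Of the 8 genes, 7 passed the filter on low counts, for which a high count in 1 class is enough, and Tmem95 did not. 6 of the 7 rose and 1 fell, where 38.1% of all rows tested were called higher and 40.9% lower. Log2 fold changes were 5.84 ± 0.22 for Izumo1, 5.33 ± 0.14 for Izumo2, 5.12 ± 0.13 for Izumo3 and 5.27 ± 0.22 for Spaca6 (± SE). Dcst1 rose by 6.09 ± 0.22 and Dcst2 by 5.79 ± 0.27 on the log2 scale. For these 6 genes the fold is relative to spermatocyte levels whose share of the all-cell CPM lay within or below the range of the protamine and transition protein genes. How much of those levels is free RNA was not tested. The adjusted p of the 6 lay between 7.98e-13 and 1.13e-10. Izumo4 fell by 0.86 ± 0.13 on the log2 scale (adjusted p = 3.45e-05). The 2 spermatocyte-like clusters differed for Izumo4. In a fit with all clusters apart, round spermatid-like cells were at -1.09 ± 0.16 against the pachytene or later cluster. Against the early cluster they were at 1.73 ± 0.18.

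Between round spermatid-like cells and both elongating or condensing clusters together, 1 of the 7 genes rose and 3 fell, where 28.3% of all rows were called higher and 27.3% lower. Izumo2 rose by 1.18 ± 0.11 on the log2 scale (adjusted p = 6.25e-07). Dcst1 fell by 1.18 ± 0.17, Dcst2 fell by 1.004 ± 0.21 and Izumo4 fell by 0.79 ± 0.14 (adjusted p between 3.64e-05 and 0.000923). Izumo1 had a log2 fold change of -0.12 ± 0.17, Izumo3 of 0.25 ± 0.11 and Spaca6 of 0.09 ± 0.17 (adjusted p = 0.558, 0.0581 and 0.679), none of which passed the test. With the mouse as a block, Izumo3 passed at 0.25. The merged class joined 2 clusters that differed for Izumo1 and Spaca6. In the fit with all clusters apart, the first elongating or condensing cluster was at 0.57 and 0.71 against round spermatid-like cells. The second was at -2.16 and -1.46.

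These folds depended on the scaling. TMM scaling, which evens out the bulk of genes, gave factors of 1.40 and 1.42 for spermatocyte-like, 1.13 and 1.13 for round spermatid-like and 0.623 and 0.626 for elongating or condensing spermatid-like sums. In the second elongating or condensing cluster, Prm1, Prm2, Tnp1 and Tnp2 took 18.4 and 15.3% of all UMIs, against 0.748 and 0.550% in round spermatid-like cells. With total UMIs alone (an alternative added after the factors had been seen), the median of all rows moved from -0.03 to -0.88 between round and elongating or condensing spermatid-like cells, and 15.6% of rows were called higher and 52.2% lower. On that scale Izumo1 fell by 0.98, Spaca6 by 0.77 and Izumo3 by 0.61, all 3 past the test, and Izumo2 still rose, by 0.32. Of these, Izumo1 and Spaca6 were near the median of all rows (SE 0.17 and 0.18), and Izumo3 lay above it (SE 0.11). Dcst1, Dcst2 and Izumo4 fell under both scalings, by 2.04, 1.86 and 1.65 with total UMIs. For round against spermatocyte-like cells the 6 genes were higher and Izumo4 lower on this scale too, where 34.4% of rows were called higher and 48.1% lower.

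Comparing each cluster with the next placed the changes along the ordering (edgeR as above, 14123 rows, 12 sums). From early to the pachytene or later spermatocyte-like cluster, Izumo4 rose by 2.82 ± 0.18 on the log2 scale (adjusted p = 2.71e-11), where 25.8% of rows were called higher. Izumo2 fell by 0.64 ± 0.20 (adjusted p = 0.0114; 24.5% of rows called lower), from 26.8 and 24.0 CPM to 12.6 and 14.5 CPM. Prm1 was also lower in the later of these clusters, at 1438 and 1074 CPM after 2967 and 1380 CPM. The part of free RNA in the change of Izumo2 was not tested, and the call was lost without doublets (log2 fold change -0.14) and without the filter (-0.42). Izumo1 at 0.55 ± 0.39 and Izumo3 at 0.50 ± 0.23 did not pass (adjusted p = 0.254 and 0.0723), but without doublets both passed as higher, at 1.18 and 0.95.

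From pachytene or later spermatocyte-like to unnamed cells, 6 of the 7 genes rose by 3.57 (Izumo2) to 4.58 (Dcst2) on the log2 scale, where 31.7% of rows were called higher. Izumo4 fell by 0.68 ± 0.16, where 30.9% were called lower. From unnamed to round spermatid-like cells the same 6 genes rose again, from 0.83 ± 0.13 for Izumo3 to 1.94 ± 0.14 for Izumo2 (25.8% of rows higher). Izumo4 fell by 0.41 ± 0.16 (adjusted p = 0.0390; 20.2% of rows lower), a call that DESeq2 did not make.

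From round to the first elongating or condensing spermatid-like cluster the genes separated. Izumo1, Izumo2 and Spaca6 rose by 0.57 ± 0.15, 0.71 ± 0.13 and 0.71 ± 0.16 on the log2 scale, where 23.5% of rows were called higher. Dcst1 fell by 0.48 ± 0.17 (21% of rows lower), a call that DESeq2 did not make, while Dcst2 at -0.35 ± 0.19, Izumo4 at -0.39 ± 0.17 and Izumo3 at -0.01 ± 0.13 did not pass. With total UMIs the median of all rows was -0.57. On that scale (17.4% of rows higher, 39.5% lower) Izumo1, Izumo2 and Spaca6 were at 0.06, 0.20 and 0.20 and did not pass, and Dcst1, Dcst2, Izumo3 and Izumo4 fell, the last 3 by 0.86, 0.53 and 0.90. Without the filter on low counts the values were near these, at 0.05, 0.20 and 0.19 for the former 3 genes, and the same calls were lost. With the mouse as a block, Dcst2 and Izumo4 also passed, at -0.36 and -0.39.

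From the first to the second elongating or condensing cluster, 5 of the 7 genes fell, where 23.2% of rows were called lower. Izumo1 fell by 2.73 ± 0.18, Dcst1 by 2.71 ± 0.25, Dcst2 by 2.32 ± 0.27, Spaca6 by 2.17 ± 0.20 and Izumo4 by 1.15 ± 0.20 on the log2 scale (largest adjusted p = 4.66e-05). All 5 also fell with total UMIs (36.7% of rows lower). Izumo2 rose by 0.81 ± 0.14 and Izumo3 by 0.45 ± 0.13 (16.4% of rows higher), but with total UMIs, where the median of all rows was -0.60 and 6.04% were called higher, they were at 0.20 and -0.15 and did not pass. Fewer UMIs of a gene in these cells can reflect fewer RNA molecules or poorer capture, which cannot be told apart.

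**Figure D2:**
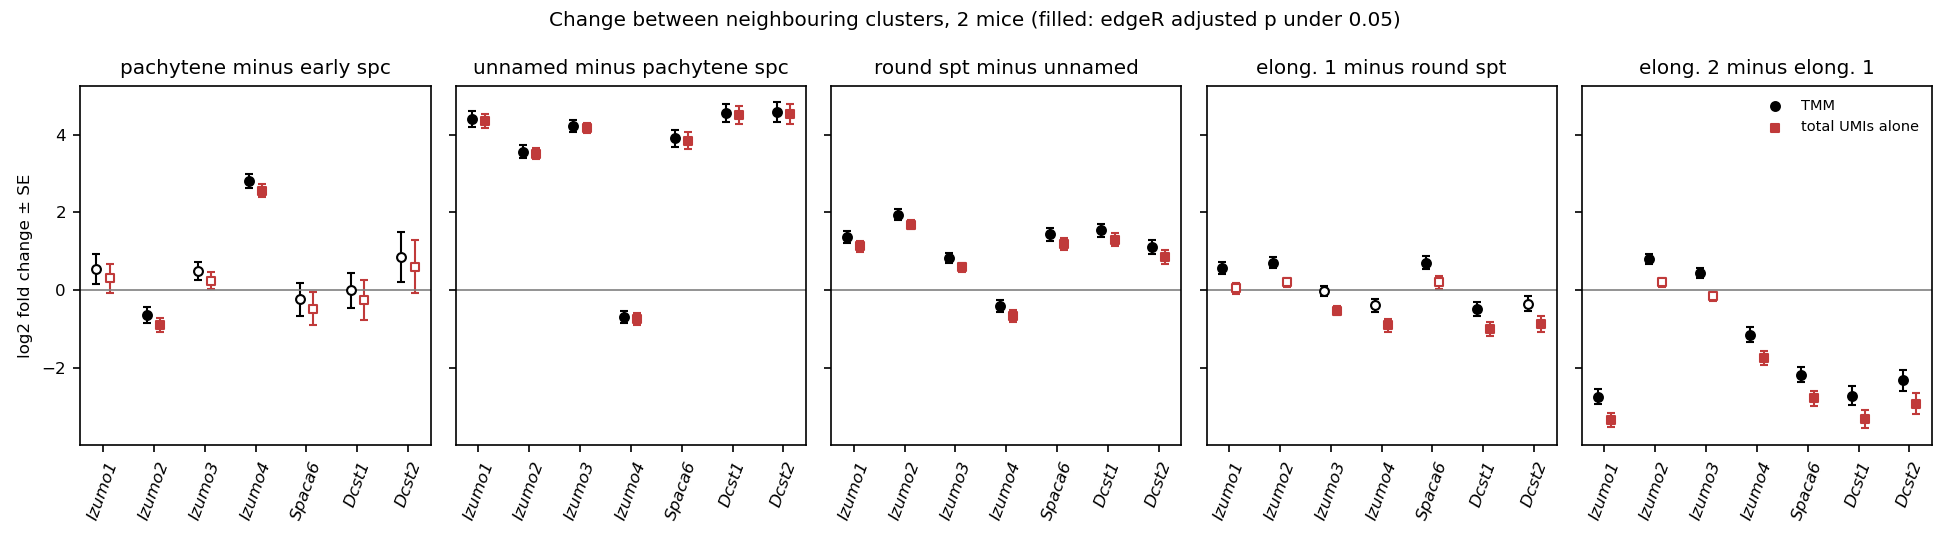
Log2 fold change ± SE (y axis, later minus earlier cluster) of 7 genes between neighbouring clusters, from sums of 2 mice, with TMM scaling (black circles) and with total UMIs alone (red squares). Filled symbols passed the edgeR test (adjusted p under 0.05). The scalings part most in the 2 rightmost panels, where Izumo2 goes from 0.71 to 0.20 and from 0.81 to 0.20, and Izumo3 from 0.45 to -0.15 in the last.

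A finer view was taken in 20 bins of equal cell number along the ordering. Izumo4 was highest in bin 5 in mouse 1 and bin 3 in mouse 2, at 482 and 499.8 CPM, and stayed at or above 50% of its highest value from bin 3 to bin 11 and bin 9. Dcst1 and Izumo3 were highest in bin 13 in both mice and Dcst2 in bin 14. Izumo1 and Spaca6 were highest in bin 14 or 15, depending on the mouse. Izumo2 was highest in bin 18 and bin 19, although its UMIs per cell were highest in bin 15 in both mice.

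The genes differed in the CPM of the last bin. Izumo2 kept 93.4 and 88.8% and Izumo3 57.8 and 48.3% of their highest CPM there. The other 5 kept between 3.84% (Izumo4, mouse 2) and 13.3% (Izumo1, mouse 2). Counted per cell, less remained of Izumo2 and Izumo3. Izumo2 had 14.83 and 14.75 UMIs per cell in its highest bin and 7.96 and 7.70 in the last. Izumo3 had 9.41 and 10.1 in its highest bin and 3.02 and 2.72 in the last.

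**Figure D3:**
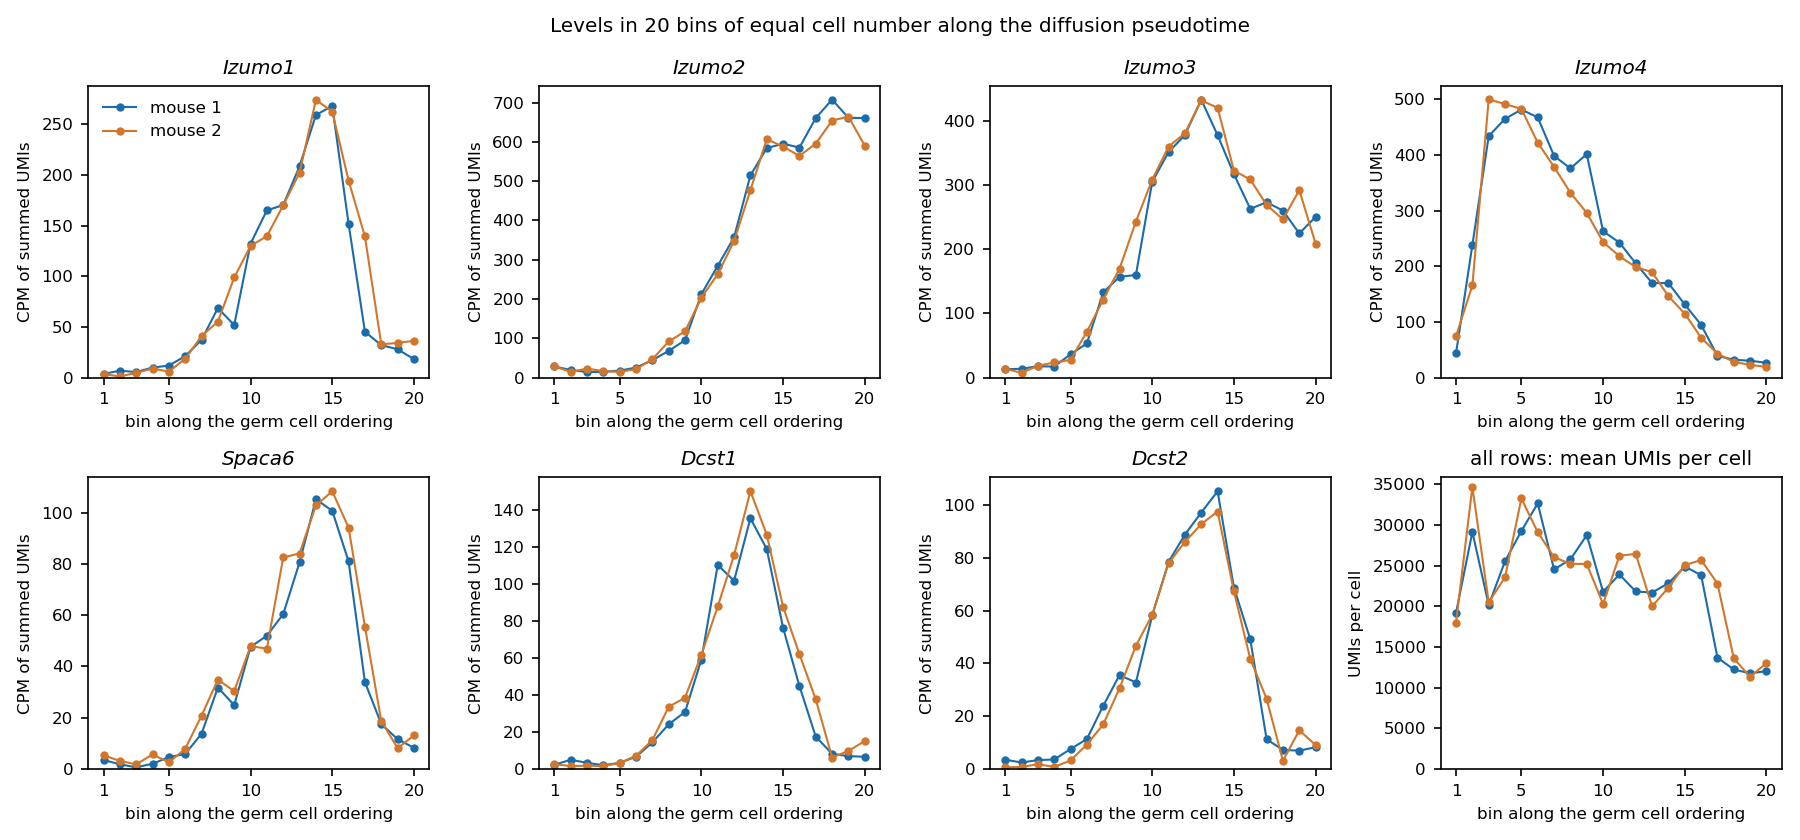
CPM (y axis, from 0) of 7 genes in 20 bins of equal cell number along the pseudotime (x axis), with 1 line per mouse, and in the last panel the mean total UMIs per cell of the same bins. Izumo4 is highest in bin 5 or 3, the other genes from bin 13 on, and Izumo2 and Izumo3 remain high in bin 20, where the total per cell is low.

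Likeness of profiles was measured as Pearson's r of log2(CPM + 10) over 40 points (20 bins in 2 mice). It describes these 2 libraries, which the points share, and carries no test. Among the members, r was highest between Dcst1 and Dcst2 (0.980), followed by Izumo1 and Spaca6 (0.977). Izumo1 had r of 0.959 with Dcst1, 0.953 with Dcst2, 0.885 with Izumo3 and 0.736 with Izumo2. Izumo4 had r between -0.69 (Izumo2) and 0.09 (Dcst2) with the others. How many rows reached these values was counted for likeness to Izumo1 only, and not for Dcst1 with Dcst2. Of 8017 rows with at least 500 UMIs, 21 were as like Izumo1 as Spaca6 was, or more so. For Dcst1 the count was 89 and for Dcst2 it was 123. For Izumo3 it was 478 and for Izumo2 1127. Each count includes the named gene itself.

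For each gene the 3 most similar of the 8017 rows were taken. For Izumo1 these were Fam209 (r = 0.988), Best1 (0.988) and Tmem190 (0.985), and for Spaca6 Best1 (0.983), Lmnb2 (0.982) and Spaca4 (0.980). Izumo2 was most like Fam205c (0.998), Pdzk1 (0.995) and 4921539E11Rik (0.995), and Izumo3 most like Fam83e (0.993), Fam217a (0.992) and 1700017N19Rik (0.992). Izumo4 was most like Catsper2 (0.989), Vps26a (0.987) and Adam18 (0.982). Dcst1 was nearest to Triml1 (0.988), 4930471D02Rik (0.986) and Fam135b (0.985), and Dcst2 to 4933405O20Rik, 4930471D02Rik and 1700061G19Rik (0.989, 0.988 and 0.988). Of these 21 pairs, 11 were kept with a pseudocount of 1 CPM and 12 with 10 bins, so that the names stand for many rows of nearly equal likeness.

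Ratios of UMIs between genes were followed from cluster to cluster. Dcst1 had 1.27 UMIs per UMI of Dcst2 in round spermatid-like cells of mouse 1 (exact 95% interval 1.11 to 1.45) and 1.37 in those of mouse 2 (1.22 to 1.52). In unnamed cells the ratio was 0.886 (0.748 to 1.05) and 1.05 (0.917 to 1.20), below that of the round spermatid-like cells in both mice. Izumo1 had 2.72 UMIs per UMI of Spaca6 in round spermatid-like cells of mouse 1 (2.41 to 3.08) and 1.27 in the second elongating or condensing cluster (0.881 to 1.83). In mouse 2 these ratios were 2.37 (2.15 to 2.62) and 1.90 (1.30 to 2.84), with intervals that overlap. Izumo2 went from 2.24 and 2.20 UMIs per UMI of Izumo1 in the round spermatid-like cluster to 33.7 and 24.4 in the second elongating or condensing cluster. A ratio within a library does not depend on the scaling.

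Single cells carried several members together. After thinning of each cell to 5000 UMIs, round spermatid-like cells had UMIs of 4.14 and 4.36 of the 8 genes on average, unnamed cells of 2.79 and 3.07, and the pachytene or later spermatocyte-like cluster of 1.15 and 1.08. Without thinning, the averages in round spermatid-like cells were 6.53 and 6.49. In thinned round spermatid-like cells, the number of cells with UMIs of both genes of a pair was 0.862 to 1.09 times the product of the shares of both, over 21 pairs in 2 mice, with a median of 1.01.

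Other sperm proteins of fusion or adhesion were taken for comparison: 1700034O15Rik (Llcfc1), 4930451I11Rik (Fimp), Tmem81, Eqtn, Spesp1, Cd46 and Ace3. Between spermatocyte-like and round spermatid-like cells 6 of these 7 rose (38.1% of all rows higher), with a median log2 fold change of 5.23, beside 5.33 for the fusion genes and -0.13 for all rows. Eqtn, an acrosomal membrane protein, rose by 6.42 ± 0.17 and Tmem81, a partner of IZUMO1 and SPACA6, by 5.87 ± 0.24. Spesp1, with 0.21 ± 0.12, did not pass. Its level was 225 and 238 CPM in the pachytene or later spermatocyte-like cluster, the cluster in which Izumo4 was highest, and 278 and 244 CPM in unnamed cells. From round to elongating or condensing spermatid-like cells 2 rose and 4 fell, where 28.3% of all rows were called higher and 27.3% lower. 1700034O15Rik rose by 0.52 ± 0.10 with TMM, as Izumo2 did, but with total UMIs 1 of the 7 rose and 6 fell (15.6% of all rows higher, 52.2% lower). Cd46, a complement regulator of the acrosomal membrane, was concentrated in the first elongating or condensing cluster, with 78.3 and 108 CPM, beside 3.47 and 5.61 CPM in round spermatid-like cells.

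In the acrosome list of 11 genes, 9 rose and 1 fell between spermatocyte-like and round spermatid-like cells (median log2 fold change 5.25), where 38.1% of all rows were called higher and 40.9% lower. Between round and elongating or condensing spermatid-like cells 10 fell (median -0.75; 27.3% of all rows lower), with Spaca7 at 0.10 ± 0.11. Zpbp2, which fell by 0.43 ± 0.11 in the first comparison, and Acrbp, at 0.08 ± 0.12, had their highest CPM in bins 4 and 5 (Zpbp2) and bin 3 (Acrbp), near those of Izumo4. Spam1, a hyaluronidase, fell by 3.30 ± 0.16 in the second comparison. With total UMIs, 8 of the 11 rose and 1 fell in the first comparison (34.4% of all rows higher, 48.1% lower), and 11 fell in the second, where 52.2% of all rows were called lower.

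Of the egg proteins, Izumo1r had 0 UMIs in 57752829. Cd9, the tetraspanin that eggs need for fusion, and Cd81 had 1.63 ± 0.499 and 6.56 ± 0.311 CPM over all cells (SD, n = 2). Along the ordering, Cd9 was highest in bin 15 of mouse 1 and bin 16 of mouse 2, at 10.2 and 10.7 CPM (15 and 19 UMIs). From round to elongating or condensing spermatid-like cells both genes rose, with log2 fold changes of 1.51 and 4.38 (28.3% of all rows higher). With total UMIs 1 of the 2 rose (15.6% of all rows higher). In the 5 Leydig-like cells, Cd81 was at 1201 CPM in the 1 cell of mouse 1 and 1670 CPM in the 4 cells of mouse 2.

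**Figure D4:**
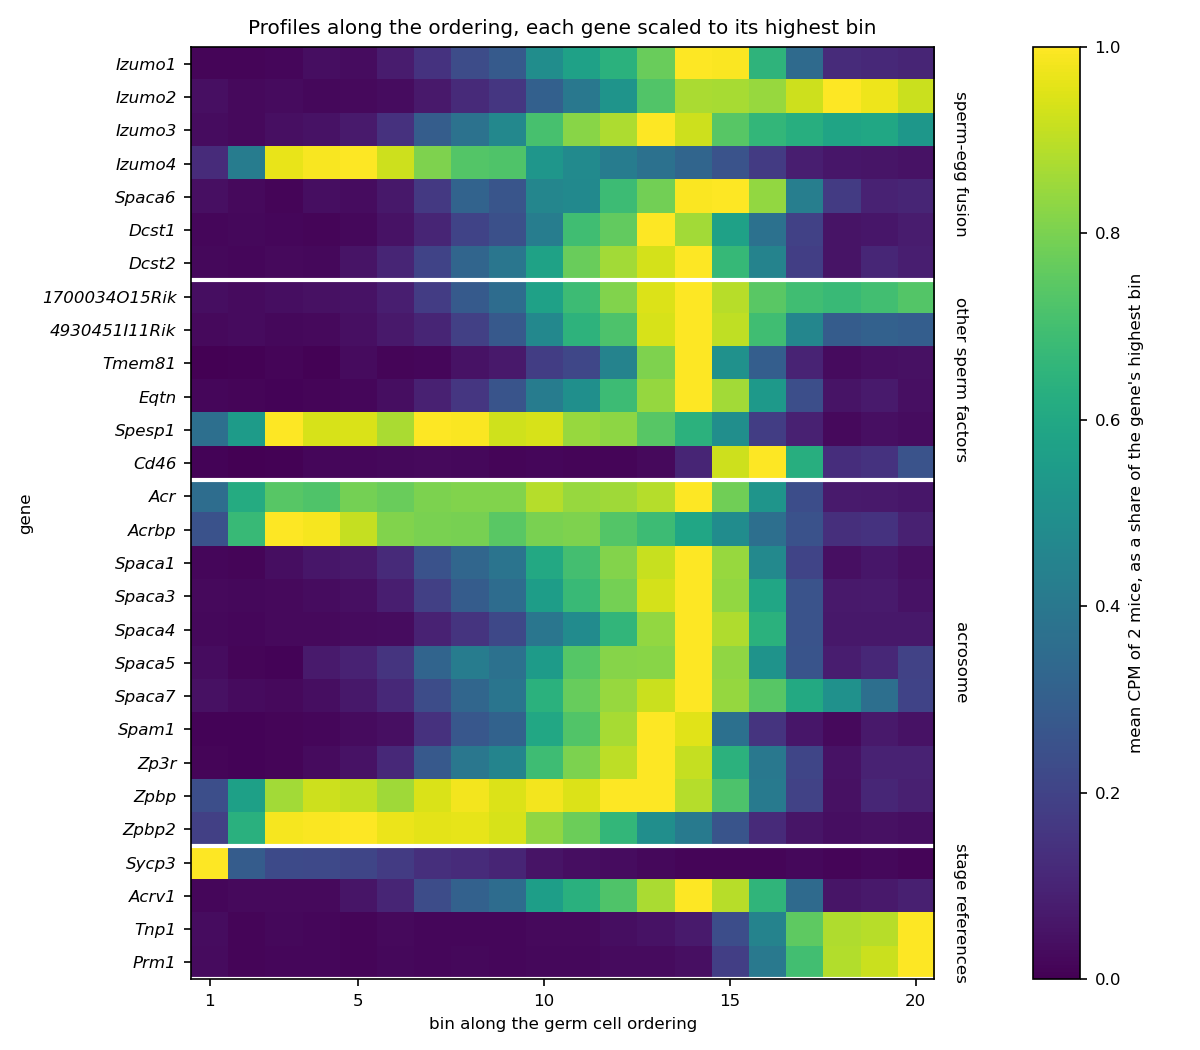
Mean CPM of the 2 mice in 20 bins along the ordering (x axis), each gene (rows) divided by its highest bin (colour, 0 to 1), for 7 fusion genes, 6 other sperm factors, 11 acrosome genes and 4 stage references. Izumo4, Spesp1, Acr, Acrbp, Zpbp and Zpbp2 are high from bin 3 on. Most other genes are brightest in bins 13 to 15. Izumo2, 1700034O15Rik and, at a lower share, Izumo3 continue into the bins in which Tnp1 and Prm1 are high. In the last bin 1700034O15Rik keeps 70.5 and 76.5% of its highest CPM in mouse 1 and mouse 2.

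Over all cells, mouse 2 had 1.31 times the CPM of mouse 1 for Izumo1 (exact 95% interval 1.24 to 1.38), 1.39 times for Dcst1 (1.28 to 1.51) and 0.805 times for Izumo4 (0.779 to 0.832). Pachytene or later spermatocyte-like cells numbered 307 of 1237 in mouse 1, against 219 of 1315 in mouse 2. Within clusters the ratio was 0.770 to 1.44 over 29 values with at least 100 UMIs, of which 28 lay between the 5th and 95th percentile of all rows of that cluster. The exception was Izumo4 in early spermatocyte-like cells, at 1.44 (1.08 to 1.92). With 1 mouse on each side this comparison has no replicate check, and the intervals cover counting error only.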

How the data were processed

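The authors demultiplexed the reads with bcl2fastq 2.17.1.14 and counted them with Cell Ranger 2.0.0 against a repeat-masked GRCm38 genome (mm10) with Ensembl release 89 genes and added repeat sequences, combined both libraries with downsampling of reads to equal depth, and deposited whole UMI counts for 51868 rows (50686 genes) in 2552 cells. The mouse of a cell was read from the number at the end of its barcode. PCR duplicates were removed by the UMI, and all intervals cover counting error only.

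The 8 members and all comparison lists were chosen with earlier results of these data known. Counts were scaled to the median total and log-transformed, and 10 principal components of 27762 rows (28 genes of the lists left out) were clustered by K-means (K = 9, seed 42). A cluster took the class of highest mean standardised marker score, kept where at least 50% of its markers had 1.5 times the CPM of all cells, a limit set after the clusters had been seen. Diffusion pseudotime (scanpy 1.11.5, 15 neighbours) ordered the 2533 germ cells from the cell of highest early spermatocyte score. Scrublet called 25 cells (0.980%) as doublets, which were kept. The authors' table of cell types was not used here.

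UMI counts summed per mouse and class were tested with edgeR 4.0.16 (R 4.3.3; filterByExpr, TMM, quasi-likelihood, adjusted p under 0.05 by Benjamini-Hochberg). All classes share 1 estimate of the spread. SE is the absolute log2 fold change divided by the root of the F statistic. On simulated counts for round against spermatocyte-like cells (13963 rows, 200 of them changed 4-fold), 190 were recovered with 7 false calls. The other simulated rows had the same mean share in every class, and all rows had 1 common dispersion. In the data 38.1% of rows were called higher and 40.9% lower, so the simulation does not show how the test behaves there. Sums of the same number come from 1 animal, and their deviations correlated at 0.0243 to 0.230 (15 pairs of clusters, 14123 rows). Alternatives were DESeq2 1.42.0, no filter, a mouse block, no doublets, K = 10, another seed, all genes or no repeats in the clustering, the unnamed cluster counted with its best class, each mouse alone, thinning to 5000 UMIs, other bins, roots, neighbours and pseudocounts and, added later, no TMM. Genes named as most similar are the 3 rows with the highest r among those with at least 500 UMIs. UMIs were not divided by gene length, since each molecule is counted once, and levels of different genes were set against each other only as ratios followed across clusters.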

Additional observations from a re-analysis of the deposited data

How the results depend on the processing

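For round against spermatocyte-like cells, the counts of 6 higher and 1 lower gene were the same under all alternatives run. With either mouse alone, CPM ratios kept the direction of all 7 called genes in this comparison and of all 4 in the next. For elongating or condensing against round spermatid-like cells, where 1 gene was higher and 3 were lower, the count of higher genes was 2 with the replicate block (the added gene is Izumo3) and 2 without doublets, and the count of lower genes was 6 with total UMIs alone. On that scale Spaca6 (-0.77) and Izumo3 (-0.61) reversed, as Izumo3 did between the first and the second elongating or condensing cluster (-0.15). Over the 5 pairs of neighbouring clusters, 18 changes were called higher and 9 lower, with 13 to 20 and 7 to 12 over the alternatives. Without doublets, Izumo1 (1.18) and Izumo3 (0.95) also passed between both spermatocyte-like clusters, as Izumo3 did without the filter (0.71). The part of free RNA in these levels was not tested. The replicate block, in which the mouse pairs the sums, added the calls named in the report and no others. The cause of these differences beyond the scaling was not tested.

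Thinning to 5000 UMIs lowered the share of all cells with a UMI, by construction, from 53.9 to 30.7% for Izumo1, 76.4 to 56.7% for Izumo2, 76.6 to 56.4% for Izumo3, 80.1 to 54.6% for Izumo4, 39.7 to 15.4% for Spaca6, 0.666 to 0.157% for Tmem95, 39.4 to 17.9% for Dcst1 and 38.4 to 15.8% for Dcst2. The ratio of mouse 2 to mouse 1 after thinning was 1.03 for Izumo2, 1.16 for Izumo3, 0.880 for Izumo4 and 1.31 for Dcst2, outside the counting intervals of the values from all UMIs (1.10, 1.23, 0.805 and 1.19). Of the 21 pairs of most similar rows, 11 were kept with a pseudocount of 1 CPM and 12 with 10 bins. The cluster of highest CPM was the same for 6 to 7 of 7 genes with each mouse alone, Izumo1 without mouse 2 being the exception, and the highest bin moved by more than 1 for Izumo4 without mouse 1 and was an earlier one with 10 bins. Tests rest on 2 mice, and the filter left Tmem95 (17 UMIs) out of the test.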
